A study of Mus musculus with 20 samples.

Results

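The core circadian oscillator was examined as 10 genes, chosen by name and not by any measured value: the activator genes Clock, Arntl and Npas2, the repressor genes Per1, Per2, Per3, Cry1 and Cry2, and the nuclear receptor genes Nr1d1 and Nr1d2. They are 10 of 21887 protein-coding genes, and were named with earlier results of these data known. For each gene and each library, all H3K27ac regions that overlapped the annotated span extended by 5 kb on both sides were taken, and their tags and lengths were summed. The signal at a gene is given in scaled tags, the authors' tag number per region brought to 10000000 tags per library.

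In mammalian cells CLOCK or its paralogue NPAS2 pairs with ARNTL, also called BMAL1, and the pair binds E-box sequences and activates the Per, Cry and Nr1d genes. PER and CRY proteins return to the nucleus and inhibit the activators, while NR1D1 and NR1D2, also called REV-ERB alpha and beta, repress Arntl, Npas2 and Clock through the DNA element they share with the ROR receptors. In liver this loop runs with a daily period and times much of lipid, glucose and bile acid metabolism, and H3K27ac, the acetylation of histone H3 found at active promoters and enhancers, varies over the day at many clock genes.

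Chromatin immunoprecipitation with an H3K27ac antibody, followed by sequencing, was applied to hepatocytes of old C57BL/6J mice, aged 23 months, and of young C57BL/6N mice, aged 5 months, with 5 libraries for each age. The cells had been obtained by perfusing the liver, and human chromatin had been added before immunoprecipitation in every library. Of 20 samples, 10 were inputs, used here only where the region lists carry an input value. No mutation, transgene or drug is named in the labels. Age and substrain coincide and cannot be told apart. The labels give no time of day of collection and leave unsaid whether each library stands for its own mouse. The p-values then describe only the variation among these libraries, some of which may be technical. Values scaled to the human chromatin were not analysed here, so the total amount of acetylation cannot be compared between ages. In bulk chromatin, fewer cells carrying the mark and less mark per cell cannot be told apart.

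The libraries held 6295930 to 15544145 tags. The share of tags inside called regions ran from 24.5% to 35.8% in old libraries and from 34.6% to 48.2% in young libraries. A called region covered the listed start site of 40.1% to 46.1% of 17492 genes in old libraries, lowest in old replicate 5. That share was 33.4% in young replicates 1 and 3 and 47.4% to 49.1% in the other young libraries. Hepatocyte marker genes carried regions in every library (8 of 8 markers), with summed tags of 3769 to 6317 in old libraries and 7151 to 9390 in young libraries. These sums were taken before centring each library on its median gene window, which was itself lower in old libraries. Before centring, 9.23% of gene windows had every old library below every young one. Markers of other liver cells were called in part. Those with no called region in any library were 5 of 6 for Kupffer cells (Clec4f, Adgre1, Marco, Vsig4 and Cd5l), 5 of 6 for stellate cells (all but Reln), Kdr and Cdh5 for endothelial cells, Krt19, Krt7 and Epcam for cholangiocytes, and, among the lymphocyte markers, Cd3e, Ptprc and Cd8a. The Stab2, Sox9 and Nkg7 windows carried regions in all 10 libraries, those of Lyve1, Reln and the B cell gene Cd79a in 9, that of Pecam1 in 7, of Spp1 in 6, of Clec4g in 2 and of Csf1r in 1. Summed marker tags were 0 in old and 0 to 12.5 in young libraries for Kupffer cells, 125 to 452 in old and 252 to 377 in young libraries for endothelial cells, and 44.5 to 103 in old and 0 to 144 in young libraries for stellate cells. They were 222 to 520.1 in old and 253 to 580.4 in young libraries for cholangiocytes, and 415 to 601 in old and 369.7 to 760.1 in young libraries for lymphocytes. The part of such cells in the results was not tested.

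Promoter sequences of 4 of the genes are shown because a called region lay over their start in most libraries and because the differences between libraries at these genes lie largely in those regions. They are RefSeq sequences of build GRCm38.p6, from 250 bases before to 50 bases after the listed start site, 5′ to 3′ on the gene's strand. Capitals mark matches to the motifs searched on both strands: the E-box CACGTG, the E prime box CACGTT, which reads AACGTG on the other strand, the D-box TTATGTAA or TTATGCAA, and the core of the ROR and REV-ERB element, TAGGTCA. No match overlaps another in the promoters shown.
Clock promoter, chr5:76304743-76305042, minus strand: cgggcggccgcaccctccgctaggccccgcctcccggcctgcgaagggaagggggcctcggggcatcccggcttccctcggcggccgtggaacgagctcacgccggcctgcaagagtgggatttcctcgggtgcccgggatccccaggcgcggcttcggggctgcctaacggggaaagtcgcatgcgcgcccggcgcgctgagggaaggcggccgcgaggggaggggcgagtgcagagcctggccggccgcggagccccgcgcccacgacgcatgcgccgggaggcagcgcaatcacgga
Arntl promoter, chr7:113207261-113207560, plus strand: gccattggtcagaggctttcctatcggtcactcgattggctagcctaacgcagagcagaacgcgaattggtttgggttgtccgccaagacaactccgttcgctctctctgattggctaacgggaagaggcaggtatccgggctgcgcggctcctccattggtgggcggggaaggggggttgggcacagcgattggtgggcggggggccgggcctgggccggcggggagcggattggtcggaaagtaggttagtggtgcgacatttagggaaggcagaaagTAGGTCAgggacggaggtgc
Per1 promoter, chr11:69098699-69098998, plus strand: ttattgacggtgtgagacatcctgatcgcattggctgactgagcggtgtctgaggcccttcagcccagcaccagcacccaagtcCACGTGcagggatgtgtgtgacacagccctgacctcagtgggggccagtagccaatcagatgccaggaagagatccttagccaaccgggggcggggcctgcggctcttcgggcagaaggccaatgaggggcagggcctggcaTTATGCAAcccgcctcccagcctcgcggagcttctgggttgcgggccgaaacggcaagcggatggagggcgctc
Cry1 promoter, chr10:85185005-85185304, minus strand: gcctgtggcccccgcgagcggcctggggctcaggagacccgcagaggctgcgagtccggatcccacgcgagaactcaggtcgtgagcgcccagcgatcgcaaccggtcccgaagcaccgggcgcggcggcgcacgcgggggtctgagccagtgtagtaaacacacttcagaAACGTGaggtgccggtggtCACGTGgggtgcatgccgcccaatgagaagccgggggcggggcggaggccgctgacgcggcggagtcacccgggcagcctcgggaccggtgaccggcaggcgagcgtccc

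Promoters were listed for 9 of the 10 genes, all except Per2. The E-box stood in a listed promoter of Per1 and of Cry1, against 8.91% of 17492 genes and 7.84% of all 21263 listed promoters. The E prime box stood in those of Cry1, Cry2 and Nr1d1 (5.49% of genes and 4.68% of all promoters). The D-box stood once in a Per1 promoter and at 2 places in that of Per3 (1.97% of genes and 1.66% of all promoters). The ROR element core was found, among these genes, only in the Arntl promoter shown, starting 30 bases after the start site (2.7% of genes and 2.32% of all promoters). These letters were not found in the listed Clock, Npas2 and Nr1d2 promoters. A match describes the sequence and does not show that a factor was bound.

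All 10 genes carried at least 1 called region in all 10 libraries, as did 9703 gene windows in all, and these were fitted together with limma after each library had been centred on its median window. None (0) of the 10 genes passed a Benjamini-Hochberg adjusted p of 0.05 for tags, where 21 of the 9703 windows did (0.216%). At an unadjusted p under 0.05 there were 2, Clock and Per1, against 1329 windows (13.7%), a share near that background. The edgeR and DESeq2 tests on unscaled tags likewise called 0 of the 10. For the summed called length, 0 of the 10 passed, against 1 of the 9703 windows (0.0103%). Among the 12 regions in these windows that were called in every library, 0 passed, against 134 of 12550 such regions (1.07%). At an unadjusted p under 0.05 there were 5 of the 12, against 2156 of all such regions (17.2%). On the log2 scale 5 genes were higher and 5 lower in old libraries, with a median difference of 0.02, and the median of all windows was 0.0025. Before centring, the median window differed by −0.34, and all differences given are relative to it.

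**Figure D1:**
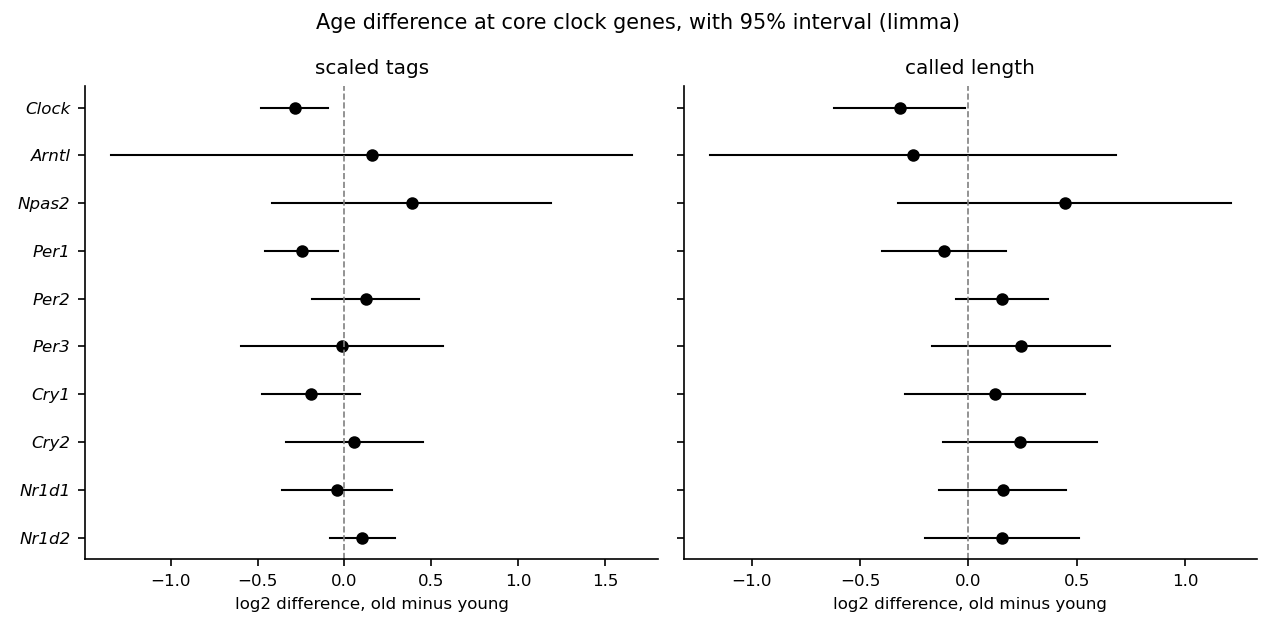
Log2 difference, old minus young, of summed scaled tags (left) and of summed called length (right) in the window of each of the 10 genes, with the 95% interval from limma (5 libraries per age, median centred). Intervals of Clock and Per1 tags lie below 0 before adjustment for 9703 windows, and the interval of Arntl is the widest, from −1.34 to 1.66.

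Per kb of window, the mean level over the 10 libraries was highest at Per2, with 57.8 scaled tags per kb, and at Nr1d1, with 56.4. Per1 followed with 46.1, Cry2 with 24.1, Nr1d2 with 17.3 and Cry1 with 14.5. Clock had 5.77, Per3 4.28, Npas2 2.39 and Arntl 2.20 scaled tags per kb. Per1 lay above Cry2, Nr1d2 above Cry1 and Cry1 above Clock in 10 of 10 libraries. Neighbours in this order that were not separated in every library were Per2 and Nr1d1 (7 of 10 libraries), Nr1d1 and Per1 (8), Cry2 and Nr1d2 (9), Clock and Per3 (8), Per3 and Npas2 (8), and Npas2 and Arntl (7). The 3 activator genes are long, and called regions covered 1.73% to 3.23% of the Clock window in old libraries and 2.93% to 4.94% in young libraries. In the Per2 window the called share was 43.7% to 55.3% in old libraries and 38.7% to 59.1% in young libraries.

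Clock encodes the DNA-binding partner of ARNTL, and its window lies at chr5:76204868-76310603. It held 526, 573, 520.0, 374 and 404 scaled tags in old replicates 1 to 5, and 618, 872, 702, 890.0 and 621 in young replicates 1 to 5. Every old library lay below every young one, with the highest old value in replicate 2 and the lowest young value in replicate 1. Windows with this arrangement made up 9.23% of all windows before centring. After centring the Clock values still did not overlap, at 8.83 to 9.17 in old libraries and 9.26 to 9.45 in young libraries on the log2 scale, an arrangement found in 1.91% of windows. The means were 479 ± 85.6 in old and 741 ± 133 in young libraries (SD, n = 5 each), and the centred log2 difference was −0.29 ± 0.088 (SE; limma adjusted p = 0.215). The interval of the difference ran from −0.48 to −0.09. With the share of tags in regions as a covariate the difference was −0.29 (limma adjusted p = 0.379). On tags per kb of called length it was 0.029. Called length averaged 2811 ± 603 bp in old and 3897 ± 834 bp in young libraries (SD, n = 5 each). Relative to input the groups overlapped, at 10.7-fold to 16.3-fold in old libraries and 7.73-fold to 34.4-fold in young libraries.

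Nearly all Clock tags (98.8%) came from the region over the promoter shown above, at chr5:76302928-76306612. It held 514, 573, 520.0, 374 and 404 scaled tags in old replicates 1 to 5, and 618, 855, 702, 851 and 613 in young replicates 1 to 5. The ages did not overlap, as in 8.3% of the 12550 regions before centring. Its centred log2 difference was −0.32 ± 0.095 (SE; limma adjusted p = 0.123). Without centring, where the median window itself was lower in old libraries, this region passed the threshold, with a difference of −0.61 (limma adjusted p = 0.0446). In that setting 87 of the 9703 windows passed, 85 of them lower in old libraries. The share of all regions passing in that setting was not counted, and the share of windows does not stand for it. A second region, inside the gene and 13.8 kb downstream of the start, was called in young replicates 2 and 4 alone, with 16.7 and 38.7 scaled tags. These calls were not tested between ages.

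Arntl encodes BMAL1, the activator partner without which the liver clock stops, and its window lies at chr7:113173471-113319126. It held 389, 424, 326, 250.3 and 47.7 scaled tags in old replicates 1 to 5, and 358, 499.9, 37.5, 519.8 and 348 in young replicates 1 to 5. Old replicate 5 and young replicate 3 lay far below the other 8 libraries, and the ages overlapped. These values rest on 30.0 unscaled tags in old replicate 5 and 27.5 in young replicate 3, against 236 to 417.5 in the other old libraries and 316 to 541.5 in the other young libraries. The log2 difference between ages was 0.16 ± 0.69 (SE; limma adjusted p = 0.938), and its interval from −1.34 to 1.66 leaves a difference of either sign possible. It turned to −0.49 without young replicate 3, to 0.64 without old replicate 5 and to −0.013 without both, the last chosen after seeing the data. The within-age SD of the centred log2 values was 1.29, larger than in 99.5% of windows, where the median window had 0.26.

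The region over the promoter of Arntl shown above, at chr7:113205958-113209092, supplied 66.3% of the tags. It held 283.1, 283.3, 208, 174 and 33.4 scaled tags in old replicates 1 to 5, and 221, 313, 386 and 219 in young replicates 1, 2, 4 and 5. In young replicate 3 no region was called over the start, where the weakest region of that library anywhere had 8.17 scaled tags. The second strongest region lies inside the gene, 53.9 kb downstream of the start, and held 20.7% of the tags. It had 87.7, 109, 83.6 and 55.7 scaled tags in old replicates 1 to 4, and 43.6, 98.5, 92.5 and 92.6 in young replicates 1, 2, 4 and 5. It was not called in old replicate 5 or young replicate 3, so both regions were weak or absent in the same libraries. An uncalled region may still carry some mark.

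**Figure D2:**
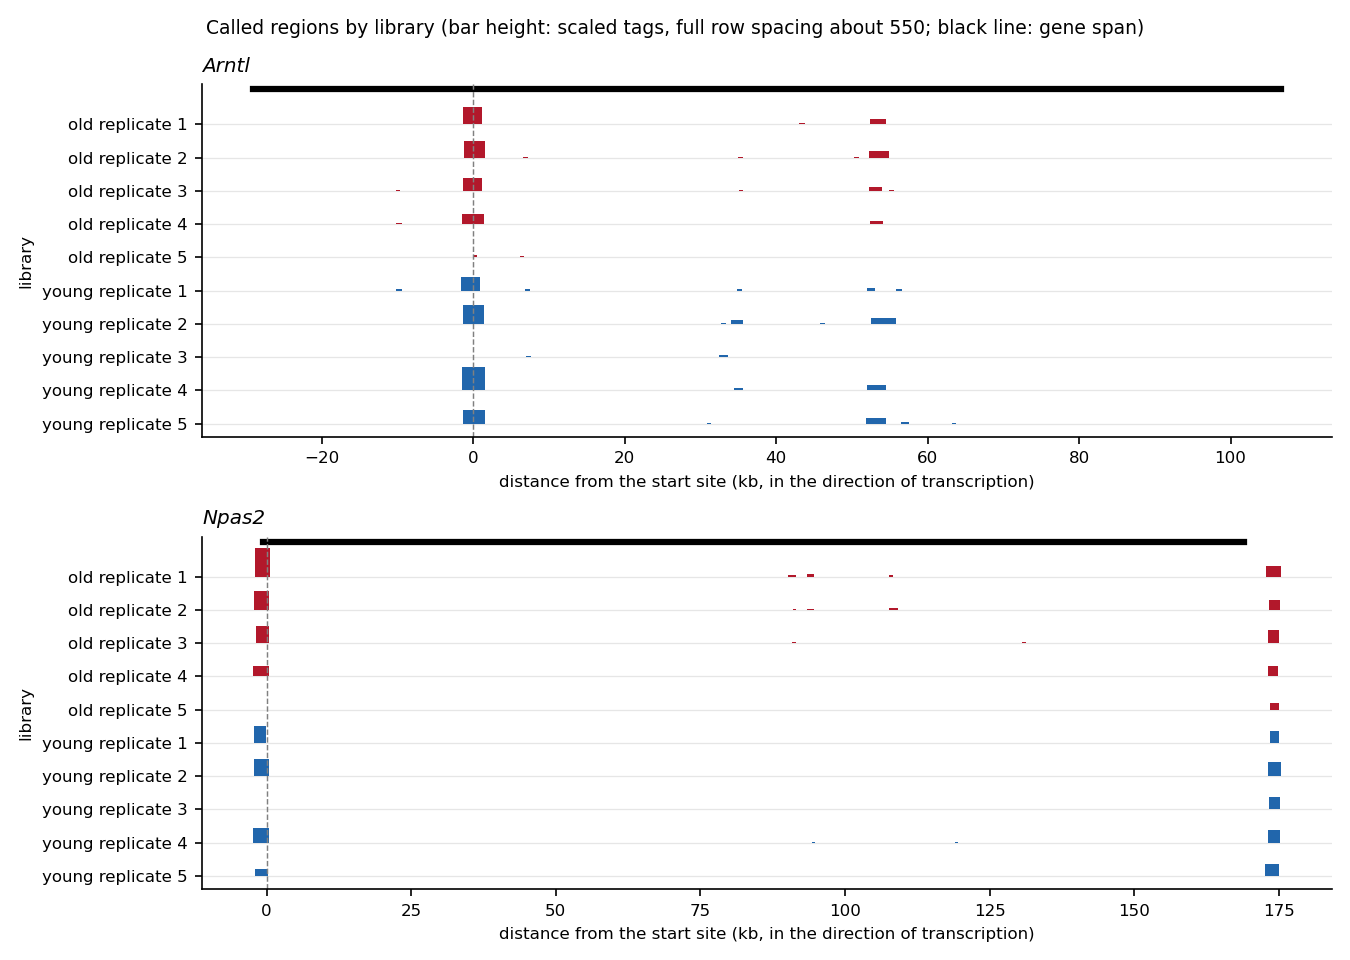
Called H3K27ac regions along Arntl (top) and Npas2 (bottom) in each library, as bars at their distance from the listed start site in kb, with height in scaled tags. The promoter region and the region about 53.9 kb downstream of Arntl are present in 8 libraries and weak or missing in old replicate 5 and young replicate 3, while the region at the right end of the Npas2 panel, over the start of Rpl31, is present in all 10.

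A value at 0.25 of the median library or less was found in at least 1 library in 613 of the 9703 windows (6.32%). The Arntl window stood at 0.135 of the median library in old replicate 5 and at 0.106 in young replicate 3. Over all windows 1.35% were that low in old replicate 5 and 2.27% in young replicate 3, and 16 windows (0.165%) were so in both. Old replicate 5 and young replicate 3 had the fewest tags (6295930 and 7341342) and the fewest called regions (21213 and 23830) of the 10 libraries. The part of depth and of the number of calls in the low Arntl values was not tested. Young replicate 1, with 8830854 tags and 25827 regions, had as small a share of listed starts in called regions as young replicate 3. In young replicate 1, 2.98% of windows were that low. Its Arntl window stood at 1.01 of the median library.

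Npas2 encodes the paralogue that can replace CLOCK in the activator pair, and its window lies at chr1:39188702-39368240. It held 770.2, 544, 514, 352 and 118 scaled tags in old replicates 1 to 5, and 488, 511, 209.8, 475 and 308 in young replicates 1 to 5. The ages overlapped, with the highest and the lowest value both in old libraries. The log2 difference was 0.39 ± 0.37 (SE; limma adjusted p = 0.665), with an interval from −0.42 to 1.19. It was −0.058 on tags per kb of called length, 0.17 without old replicate 1, 0.22 without young replicate 3 and 0.74 without old replicate 5. A region over the start of the neighbouring ribosomal protein gene Rpl31 reaches into the window, was called in every library and supplied 44.2% of the tags. That region had a log2 difference of −0.034 ± 0.13 (SE; limma adjusted p = 0.92).

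The merged region over the Npas2 start, at chr1:39191994-39194863, supplied 50.7% of the tags and was called in 8 libraries. The call covered the listed start site in 7 of them, and not in young replicate 1. Regions touching the Npas2 span itself summed to 587, 380, 302, 182 and 0 scaled tags in old replicates 1 to 5, and 289, 279, 0, 267 and 109 in young replicates 1 to 5. Old replicate 5 and young replicate 3, the libraries lowest at Arntl, had no called region on Npas2. A region of the gene body 90.8 kb from the start was called in 3 old and 0 young libraries. One at 94.1 kb was called in 3 old libraries and 1 young library, and one at 108 kb in 2 old and 0 young libraries. Each held 42.5 scaled tags or less, and the share of all regions called in this way was not counted. So few calls were not tested between ages.

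**Figure D3:**
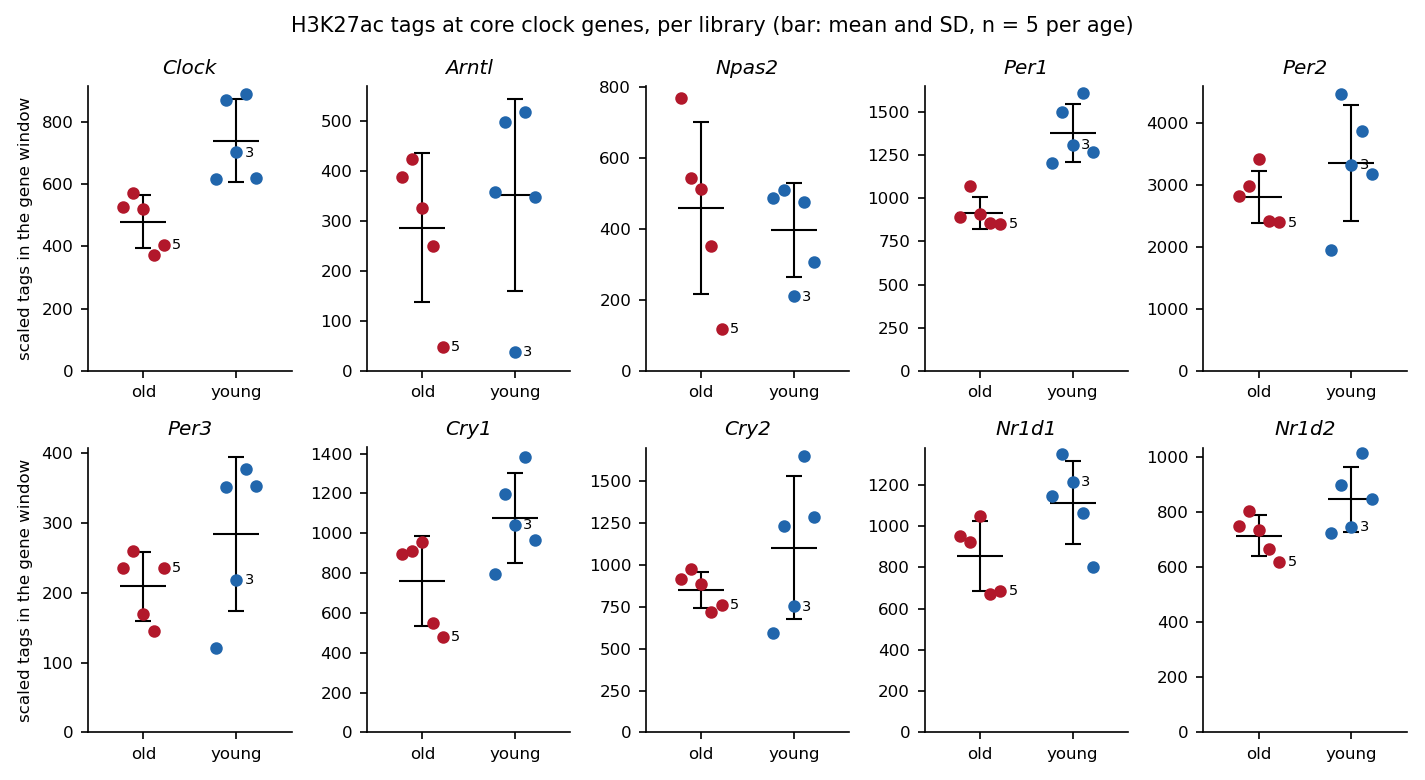
Summed scaled tags in the window of each gene, 1 point per library, with old libraries left and young libraries right, and lines for the mean and SD (n = 5 per age). Old replicate 5 and young replicate 3 are numbered. Points of Clock and Per1 do not overlap between ages, and both numbered libraries lie far below the rest at Arntl.

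Per1 encodes a repressor whose transcription also responds quickly to signals such as glucocorticoids, and its window lies at chr11:69090108-69114965. It held 890.5, 1068, 907, 854 and 849.8 scaled tags in old replicates 1 to 5, and 1206, 1497, 1306, 1609 and 1266 in young replicates 1 to 5. Every old library lay below every young one before centring, as in 9.23% of windows, while after centring the ages overlapped. The means were 914 ± 89.7 in old and 1377 ± 169 in young libraries (SD, n = 5 each). The centred log2 difference was −0.25 ± 0.096 (SE; limma adjusted p = 0.298), with an interval from −0.46 to −0.03. It was −0.41 with the share of tags in regions as a covariate (limma adjusted p = 0.238) and −0.13 on tags per kb of called length. A region at chr11:69091503-69100811 supplied 98.8% of the tags, spans the promoter shown above and overlaps the neighbouring gene Vamp2. Its log2 difference was −0.28 ± 0.1 (SE; limma adjusted p = 0.178), and −0.58 without centring, where it passed (limma adjusted p = 0.0337). Without centring the median window was itself lower in old libraries, and 85 of the 87 windows that passed were lower. The share of all regions passing without centring was not counted.

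Per2 encodes the PER protein whose loss shortens and then abolishes rhythms in mice, and it had the highest signal of the 10 genes, above 99.9% of all windows in summed tags. Its window, chr1:91410977-91464351, held 2826, 2981, 3417, 2428 and 2401 scaled tags in old replicates 1 to 5, and 1957, 4478, 3334.5, 3874.5 and 3180.3 in young replicates 1 to 5. The ages overlapped, and young replicate 1 was the lowest of all. The log2 difference was 0.12 ± 0.14 (SE; limma adjusted p = 0.728), with an interval from −0.19 to 0.43, and it was −0.22 without centring, −0.035 on tags per kb and 0.0011 without young replicate 1. The window held 6 consensus regions, of which the one with the most tags, 13813 bp long and inside the gene, supplied 43.1% and differed by 0.09 ± 0.13 (SE; limma adjusted p = 0.755). A region of 10815 bp that reaches over the gene's higher-coordinate end supplied 36.5% and differed by −0.04 ± 0.13 (SE; limma adjusted p = 0.892).

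The region of the Per2 window furthest from 0 lies outside the gene, at chr1:91461958-91466445, in no protein-coding gene. It is named after its value was seen. It held 267, 165, 247, 257 and 211 scaled tags in old replicates 1 to 5, and 114, 237, 189, 159.5 and 149 in young replicates 1 to 5. Most old libraries lay above most young ones, with overlap through old replicate 2 and young replicate 2. Its log2 difference was 0.75 ± 0.19 (SE; limma adjusted p = 0.0815), and without single libraries the adjusted p ranged from 0.0717 to 0.18. A region over the start of the neighbouring Hes6 added 10.8% of the tags of the window and was not called in young replicate 1.

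Per3 encodes the PER protein least needed for rhythm in mice, and a single merged region, shared with the start of Gm38529, made up its whole signal (window chr4:150992018-151049707). It held 235, 260.5, 169, 146 and 236 scaled tags in old replicates 1 to 5, and 121, 351, 219, 377 and 352.5 in young replicates 1 to 5. The ages overlapped, with the lowest value in young replicate 1. The log2 difference was −0.016 ± 0.27 (SE; limma adjusted p = 0.984), with an interval from −0.60 to 0.56. Fitted among regions, the same signal differed by −0.06 ± 0.28 (SE; limma adjusted p = 0.933).

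Cry1 encodes the stronger of the cryptochrome repressors, and its window lies at chr10:85126700-85190054. It held 896.5, 909.9, 958, 549.7 and 479.7 scaled tags in old replicates 1 to 5, and 796, 1197, 1041, 1385 and 964 in young replicates 1 to 5. The ages overlapped, and old replicates 4 and 5 were the lowest. The log2 difference was −0.19 ± 0.13 (SE; limma adjusted p = 0.517), with an interval from −0.48 to 0.09, and it was −0.12 without old replicate 4 or old replicate 5 and 0.89 where only regions with a score of at least 10 were summed. The 2 strongest Cry1 regions differed in sign. The one over the promoter shown above, at chr10:85182629-85186526 and with 82.1% of the tags, had 591 ± 160.4 scaled tags in old and 915 ± 177 in young libraries (SD, n = 5 each; log2 difference −0.35, limma adjusted p = 0.179). The region 4.35 kb upstream of the start had 98.2 ± 34.2 in old and 81.3 ± 25.3 in young libraries (SD, n = 5 each; log2 difference 0.54, limma adjusted p = 0.285). The difference between these regions was not tested. A weak region over the start of the neighbouring Mterf2 gave 3.28% of the tags.

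Cry2 encodes the second cryptochrome, and its window lies at chr2:92398646-92439085. It held 916, 975, 884, 721 and 761 scaled tags in old replicates 1 to 5, and 594, 1233, 751, 1647 and 1283 in young replicates 1 to 5. Young libraries spread widely around the old ones, with the lowest values in young replicates 1 and 3 and the highest in young replicate 4. The log2 difference was 0.06 ± 0.18 (SE; limma adjusted p = 0.914), with an interval from −0.34 to 0.45. The sign turned without young replicate 1 (−0.08), without young replicate 3 (−0.015), without centring (−0.28) and on tags per kb of called length (−0.18). The region over the start and much of the gene body, at chr2:92420560-92435345, supplied 96.8% of the tags and differed by 0.07 ± 0.21 (SE; limma adjusted p = 0.895; −0.28 on tags per kb). The SD of the summed tags was 12.6% of the mean in old and 38.7% in young libraries. Tags per kb of called length were 71.2 to 74.3 in old and 77.3 to 111 in young libraries, without overlap, an arrangement found in 1.4% of windows before centring. After centring, the difference of −0.18 on this scale did not pass the threshold (limma adjusted p = 0.582). A weak region 3.74 kb upstream of the start, named after its values were seen, supplied 3.11% of the tags. It held 0 to 19.9 scaled tags in old and 34.1 to 72.9 in young libraries before centring. Among regions called in all 10 libraries, 8.3% had every old library below every young one before centring. The weak region was not called in old replicate 1 and so was not tested among regions called in every library.

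Nr1d1 encodes REV-ERB alpha, and its window is the shortest, at chr11:98762932-98780377. It held 951, 921, 1046, 669.6 and 685 scaled tags in old replicates 1 to 5, and 1143, 1346, 1212, 1061 and 803 in young replicates 1 to 5. The ages overlapped through young replicate 5. The log2 difference was −0.04 ± 0.14 (SE; limma adjusted p = 0.924), with an interval from −0.36 to 0.27. One region over the gene and its start supplied 99.8% of the tags and differed by −0.09 ± 0.12 (SE; limma adjusted p = 0.744).

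Nr1d2 encodes REV-ERB beta, and its window lies at chr14:18199056-18244106. It held 750.3, 805, 736, 667.5 and 619 scaled tags in old replicates 1 to 5, and 726, 898, 746.5, 1016 and 849 in young replicates 1 to 5. The ages overlapped. Its log2 difference was 0.10 ± 0.086 (SE; limma adjusted p = 0.611), with the narrowest interval of the 10 genes, from −0.08 to 0.29, and it was −0.24 without centring, −0.053 per kb of called length and 0.056 without young replicate 2. The region over the start supplied 97.7% of the tags and differed by 0.016 ± 0.1 (SE; limma adjusted p = 0.954). A region 13.2 kb inside the gene was called in 4 old libraries and in 1 young library, with at most 52.5 scaled tags. The share of all regions called in this way was not counted, and these calls were not tested between ages.

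The median-centred log2 differences in called length were lowest at Clock (−0.32, limma adjusted p = 0.494; 9.78% of windows had an unadjusted p under 0.05) and Arntl (−0.26). They were highest at Npas2 (0.44) and at Cry2 and Per3 (0.24 each). Of the 10 differences 7 were above 0, and the share of all windows above 0 was not counted. Without centring, those at Per2 (−0.0048), Cry1 (−0.037), Nr1d1 (−0.0023) and Nr1d2 (−0.0053) were below 0.

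A further 14 genes around the core loop were read out in the same fit: the ROR receptors, the E-box repressors Bhlhe40 and Bhlhe41, the CLOCK-ARNTL inhibitor Ciart, the D-box factors Dbp, Tef, Hlf and Nfil3, and the output genes Usp2, Wee1, Nampt and Noct. Of 13 tested, 0 passed, 5 were higher and 8 lower in old libraries, and 6 had an unadjusted p under 0.05, where 0.216% of all windows passed and 13.7% had an unadjusted p under 0.05. The median difference of the 13 was −0.22, and that of all windows 0.0025. Rorb had no called region in any library. Ciart held 138 to 269 scaled tags in old and 311 to 618 in young libraries, without overlap, as in 9.23% of windows. Its log2 difference was −0.82 ± 0.14 (SE; limma adjusted p = 0.0528), which lay past the threshold in 9 of 25 alternative settings and stood at −0.041 per kb of called length. Bhlhe41 held 88.4 to 311 in old and 363 to 805 in young libraries, also without overlap, with a log2 difference of −1.27 ± 0.34 (SE; limma adjusted p = 0.151) that lay past the threshold in 2 of 24 alternative settings and stood at −0.31 per kb of called length. At the other end stood Nampt, the enzyme of NAD synthesis, with 0.32 ± 0.11 (SE; limma adjusted p = 0.25; −0.018 without centring and 0.011 per kb), and Dbp, with 0.23 ± 0.27 (SE; limma adjusted p = 0.72; −0.11 without centring and −0.049 without young replicate 1).

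Of 17 genes whose products modify clock proteins or act with them, such as casein kinases, GSK3B, SIRT1, TIMELESS and NONO, 15 were tested. None (0) passed by limma (0.216% of all windows), 0 had an unadjusted p under 0.05 (13.7% of all windows), 6 were higher and 9 lower in old libraries, and the median difference was −0.04. The furthest from 0 were Prkaa1, a catalytic subunit of the energy sensor AMPK (−0.39 ± 0.18 SE), Gsk3b (−0.34 ± 0.18; 0.23 on tags per kb), Ppp1ca, a phosphatase subunit (0.47 ± 0.42), and the deacetylase gene Sirt1 (0.40 ± 0.28), with limma adjusted p from 0.378 to 0.648. Without young replicate 1 the difference was 0.012 at Ppp1ca, 0.26 at Sirt1 and −0.19 at Gsk3b, and without young replicate 3 it was 0.18 at Sirt1. On tags per kb it was −0.025 at Prkaa1 and 0.11 at Sirt1. Fbxl21 and Btrc, with regions in 8 and 7 libraries, were not tested.

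Across libraries the 10 genes varied to very different degrees. The within-age SD of the centred log2 values was 0.11 at Nr1d2 and Clock and 0.13 at Per1, smaller than in most windows (median 0.26). It was 0.21 at Cry1, 0.22 at Per2, 0.24 at Nr1d1, 0.32 at Cry2, 0.47 at Per3, 0.68 at Npas2 and 1.29 at Arntl. Young replicate 1 was the lowest library at Per2, Per3 and Cry2.

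**Figure D4:**
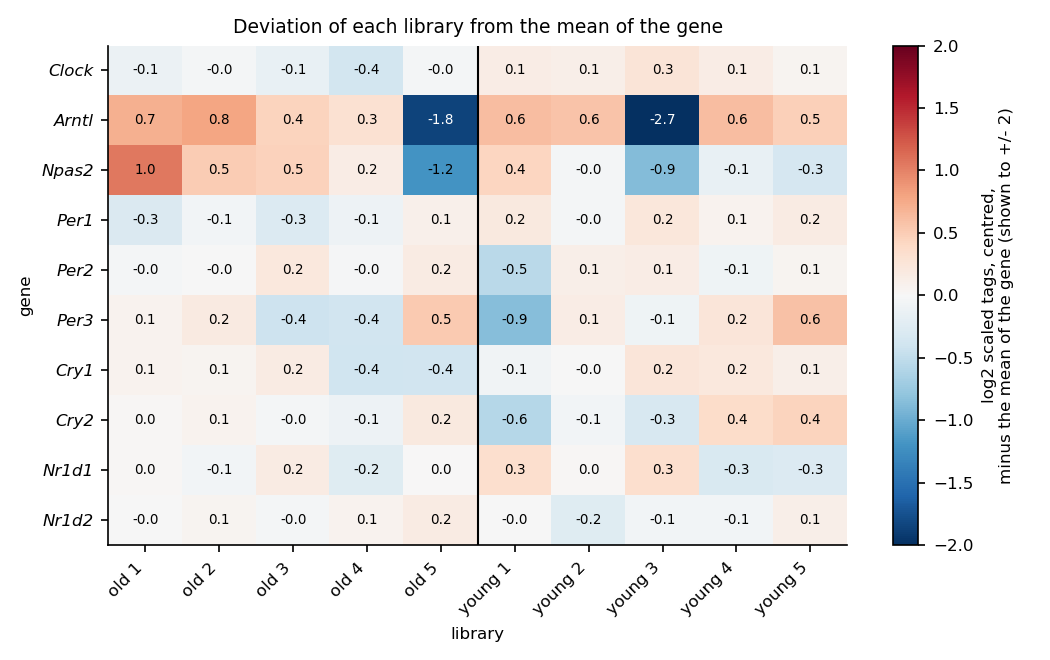
Deviation of each library from the mean of the gene on the centred log2 scale of scaled tags, with the 10 genes as rows and the libraries as columns, old left of young. Arntl and Npas2 are low together in old replicate 5 and young replicate 3, and Per2, Per3 and Cry2 in young replicate 1.

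In mouse liver, genes driven through ROR elements and genes driven through E-boxes peak at different times of day, and 3 relations between genes were therefore computed over libraries. With Arntl the libraries fall into separate clusters, so no correlation over all 10 libraries is read as a relation. Over the 8 libraries other than old replicate 5 and young replicate 3, Npas2 and Arntl had Pearson r = 0.43 (exact permutation p = 0.293) and Spearman rho = 0.43 (exact permutation p = 0.299), and Nr1d1 and Arntl had r = 0.24 (exact permutation p = 0.574) and rho = −0.048 (exact permutation p = 0.935). These 8 libraries were chosen after seeing the data. Nr1d1 and Per1 over 10 libraries had r = 0.13 (permutation p = 0.717) and rho = 0.21 (permutation p = 0.561), r = −0.019 without the 2 libraries farthest from the median of Nr1d1, and r = 0.58 on tags per kb of called length (permutation p = 0.079, adjusted 0.237). Adjusted over the 3 relations computed on the same libraries, the Pearson p was 0.72 for both relations with Arntl over 8 libraries and 0.717 for Nr1d1 and Per1 over 10. Centred within each age, r of Nr1d1 and Per1 was 0.088.

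The windows most like each gene over the 10 libraries were found by Pearson r of the centred values, leaving out windows that share a region or lie within 1 Mb. For Arntl these were Lrtm1 and Wdr83os among 9694 windows, with no r given because its libraries fall into separate clusters. Clock was most like Tent4b (0.95) and Zfp609 (0.92), and Npas2 most like Strn and Stt3a (0.92 each). For Per1 these were Cand1 (0.97) and Cep57l1 (0.95), for Per2 Rbbp8nl (0.97) and Ccdc40 (0.96), and for Per3 Sec62 (0.96) and Akap17b (0.95). For Cry1 they were Mcm8 (0.94) and Fastkd5 (0.93), for Cry2 Birc5 (0.97) and Mob3a (0.95), for Nr1d1 Lysmd3 (0.98) and Ddx1 (0.96), and for Nr1d2 Fam168b (0.93) and Smarcad1 (0.90). None of these is another of the 10 genes. Each r is the highest found among the windows over the same 10 libraries, and is given as a description.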

How the data were processed

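Lists of H3K27ac regions from 5 old and 5 young hepatocyte libraries were analysed. The authors used HOMER on each library with its matched input and pooled none, per the file headers, starting from 500 bp peaks stitched at up to 1000 bp, at 4-fold over input with a Poisson p-value of 1e-04 and 4-fold over the surrounding 10000 bp. The build is mm10, per the submitters' processing notes, while neither the aligner nor HOMER's version is given in the sources used here. The deposited signal is the tag number scaled to 10000000 tags per library. The unscaled tags, expected counts in steps of 0.5 as deposited, were rounded for the count tests. The score deposited for each region was used only as a filter, the fold over input is a ratio given by the authors, and region length in bp is an other deposited quantity.

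Regions sharing at least 1 bp across lists were merged (46767 merged regions, 31747 called in at least 2 libraries, 12550 in all 10). Gene spans came from a GRCm38.p6 gene table, the assembly of mm10. Summed tags plus 1 were put on a log2 scale, centred on the median window and tested with limma 3.58.1 (mean-dependent prior, Benjamini-Hochberg adjustment over 9703 windows, threshold 0.05), which understates changes of weak windows. Intervals are at 95%. Alternatives used edgeR 4.0.16 (quasi-likelihood) and DESeq2 1.42.0, other windows, scalings and filters, a replicate block and libraries left out. The limma step was tested on simulated data. Correlations used 100000 permutations over 10 libraries and all permutations over 8, two-sided. R 4.3.3, Python 3.11.15, numpy 2.4.6, pandas 2.3.3, scipy 1.17.1 and matplotlib 3.10.9 were used. The 10 genes, the lists of 14 and 17 related genes, the markers and the tests were chosen with earlier results of these data known. The text names all 10 genes, the strongest region of each, regions past the threshold, neighbours that share a region, the 2 list genes furthest from 0 in each direction and the 2 windows most like each gene. Other single regions were named after their values were seen.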

Additional observations from a re-analysis of the deposited data

Results flagged for a closer look

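Of 80 groups of 5 libraries examined (scaled tags, their centred log2 value, called length and tags per called kb, at 10 genes and both ages), 3 (3.8%) held a library far from the other 4 of its age, where chance gives about 1 in 20. At Arntl old replicate 5 had 6.098 centred log2 scaled tags against 8.249 to 8.732 in the other old libraries. Also at Arntl, young replicate 3 had 5.263 against 8.426 to 8.569 in the other young libraries. At Per1 old replicate 2 had 1068 scaled tags against 849.8 to 906.7 in the other old libraries, and still lay below the lowest young library.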

How the results depend on the processing

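None (0) of the 10 genes passed the threshold in any of 25 alternatives for tags or 12 for called length, with 0 to 3 at an unadjusted p under 0.05 for tags. Without centring 2 of the regions passed, those of Clock and Per1, both lower in old libraries. Differences in that setting include the shift of the median window, and the share of all regions passing there was not counted. The count of all windows, 21, was 11 with windows called in at least 2 libraries, 87 without centring (2 higher, 85 lower in old), 56 with cyclic loess scaling (34 higher, 22 lower), 9 on tags per kb of called length (8 higher, 1 lower), 32 with tags in proportion to the part inside the window, 47 with edgeR and 298 with DESeq2. It was 0 with a HOMER score of at least 10 (418 at an unadjusted p under 0.05) and 0 with the share of tags in regions as a covariate (1204 unadjusted). Leaving out single libraries gave 2 (without old replicate 4) to 68 (without young replicate 1), with 11 without old replicate 1, old replicate 2 or young replicate 3, 12 without old replicate 5, 9 without young replicate 4 and 6 without young replicate 5. Chosen after seeing the data, leaving out old replicate 5 and young replicate 3 gave 5, and leaving out young replicates 1 and 3 gave 99. With the replicate block it was 4 and no call at the 10 genes changed. Libraries of the same number did not deviate together in every pair (r = −0.036, 0.18, 0.133, −0.04 and −0.06), so the numbers are not taken as pairs. The cause of these shifts was not tested.

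Of 729 alternative values for 40 single windows, lengths and regions, 649 kept their direction and side of the threshold, 13 passed it and 67 changed sign. Without centring the log2 differences were −0.18 at Arntl, −0.22 at Per2, −0.28 at Cry2, −0.24 at Nr1d2, −0.018 at Nampt and −0.11 at Dbp, for length −0.0048 at Per2, −0.037 at Cry1, −0.0023 at Nr1d1 and −0.0053 at Nr1d2, and for the strongest regions −0.20 at Per2, −0.22 at Cry2 and −0.28 at Nr1d2. On tags per kb of called length they were 0.029 at Clock, −0.058 at Npas2, −0.035 at Per2, −0.18 at Cry2, −0.053 at Nr1d2, −0.062 at Dbp and 0.23 at Gsk3b, and for regions −0.081 at Per2, −0.28 at Cry2 and −0.0026 at Nr1d2. With a score of at least 10 they were 0.89 at Cry1, −0.22 at Cry2, −0.87 at Nr1d2 and 0.0044 at Ciart. Single changes were 0.0011 at Per3 with no extension, −0.0065 at Cry2 with edgeR, 0.0038 at Nr1d1 with cyclic loess scaling and −0.022 at Nr1d2 with the covariate.

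Without single libraries the windows ranged from −0.49 to 0.64 at Arntl, 0.0011 to 0.17 at Per2, −0.23 to 0.13 at Per3, −0.080 to 0.17 at Cry2, −0.12 to 0.037 at Nr1d1 and −0.049 to 0.36 at Dbp, the Arntl length from −0.59 to 0.13, and regions from −0.091 to 0.0094 at Rpl31 beside Npas2, −0.17 to 0.0042 at the second region of Per2, −0.31 to 0.092 at Per3, −0.11 to 0.21 at Cry2 and −0.029 to 0.066 at Nr1d2. Without old replicate 5 and young replicate 3 they were −0.013 at Arntl, −0.057 at Cry2 and 0.030 at Nr1d1, and without young replicates 1 and 3 −0.48 at Arntl, −0.22 at Cry2, 0.17 at Nr1d1, −0.10 at Dbp, −0.11 at Ppp1ca and −0.078 at Sirt1, both chosen after seeing the data. The pooled r of Npas2 and Arntl, 0.80 (permutation p adjusted over 3 relations 0.0275), was 0.77 without the 2 libraries farthest on Npas2, −0.24 on tags per kb and 0.43 without old replicate 5 and young replicate 3, so it rests on those libraries. For Nr1d1 and Arntl it was −0.41 pooled, 0.040 without the 2 farthest libraries and 0.24 without old replicate 5 and young replicate 3, and for Nr1d1 and Per1 0.13, −0.019 and −0.15. On tags per kb of called length r was −0.39 for Nr1d1 and Arntl and 0.58 for Nr1d1 and Per1. A score of at least 10 left Clock, Arntl and Per1 without a value in every library, and they could not be fitted. Values near the calling threshold rest on few tags, and a missing call sets a window or region to 0 there.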

Other observations

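Values of further genes around the core loop, chosen after they were seen, are given on the median-centred scale, and their direction under other scalings was not examined. Hlf held 492 to 837 scaled tags in old libraries and 891 to 1523 in young libraries, without overlap (as in 9.23% of windows), with a log2 difference of −0.32 ± 0.1 (SE; limma adjusted p = 0.217). Tef held 627 to 876 in old libraries and 809 to 2525 in young libraries, with −0.70 ± 0.22 (SE; limma adjusted p = 0.218), and the lowest young value was that of replicate 1. Nfil3, whose product represses at D-boxes, had −0.19 ± 0.18 (SE; limma adjusted p = 0.667). Rora, a ROR receptor gene, had 0.18 ± 0.17 (SE; limma adjusted p = 0.665), with overlapping ages. None of these passed the threshold.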
